A study of Mus musculus with 12 samples.

Results

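Large differences between libraries were described for 6 of the 55335 genes in a read count table of embryonic mouse cortex. These were Zfp990, Gm45062, BC023719, AC165951.1, Gm15772 and H60b. They had been picked from earlier results on the same table, as genes present in some libraries and almost absent in others whatever the Med13l genotype. The choice rests on their levels in these 9 libraries, so those levels and their comparisons are given as descriptions without a test. The label held in full for 3 genes, Zfp990, Gm45062 and BC023719, each of which had libraries at 0 and libraries with reads in WT, Het and KO alike. AC165951.1 was on or off, but no WT library was at 0. Gm15772 and H60b had reads in all 9 libraries, and H60b went against the label, because its lowest 3 libraries were the 3 WT libraries.

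The libraries were bulk RNA-seq of 9 cortical tissues of embryos at stage E13.5, bred from Med13l heterozygous parents. There were 3 wild-type brains (WT), 3 with 1 null allele (Het) and 3 that were homozygous for the null allele (KO). The Med13l protein belongs to the kinase module of Mediator, a coactivator complex. The strain of the mice is not given in the sources used here. The sample descriptions carry a letter whose meaning they do not state: D for WT 1, WT 2, Het 1, Het 2, KO 1 and KO 2, and F for WT 3, Het 3 and KO 3. The 3 single-cell samples of the series were not analysed here.

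Library totals ran from 37909377 to 52992392 counts. Levels are given as CPM, the number of counts per 1000000 counts of the library, computed from the counts with library sizes scaled by the TMM method. A count of 0 allows a level of up to 3 counts, which is 0.0566 to 0.0799 CPM depending on the library, and this limit covers counting error only. In WT 1, 2 and 3 Med13l itself stood at 145, 145 and 116 CPM. Het libraries had 141, 156 and 160 CPM of it, and KO libraries 130, 156 and 163 CPM. It was thus not lower in the libraries labelled KO, and its whole-gene count does not check the null allele. The summed level of 5 cortical progenitor markers was 657 to 879 CPM in 8 libraries and 306 CPM in Het 1. Nothing in the sources says that the brains of a genotype came from separate litters, so p-values measure only the spread between these libraries.

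Several of the 6 genes belong to kinds of locus that often differ between mouse genomes. KRAB zinc finger genes encode repressors that recruit the corepressor TRIM28, stand in tandem clusters and mostly silence transposable elements. The H2-T genes are class Ib members of the major histocompatibility complex, and H60b encodes a ligand of NKG2D, an activating receptor of natural killer cells. A processed pseudogene is a DNA copy of a spliced messenger RNA, and a read-through transcript joins exons of neighbouring genes. For copies and overlapping genes the share of reads given to each depends on the counting, which is not given in the sources used here.

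**Figure D1:**
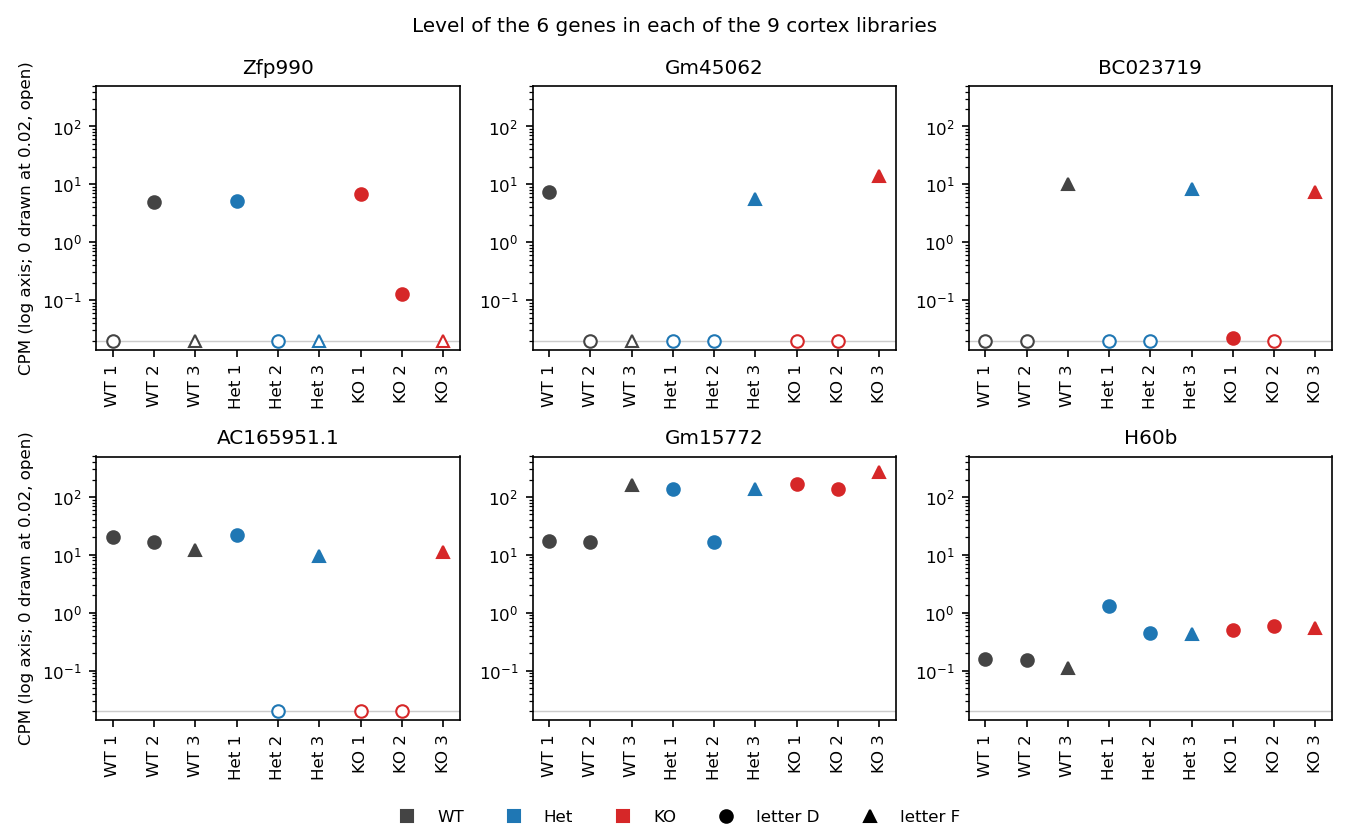
Level of each gene in CPM on a log axis, 1 point per library, with the genotype as colour, letters D and F as circles and triangles, and libraries at 0 drawn open at 0.02 CPM. Zfp990, Gm45062 and BC023719 each have 3 high libraries, 1 per genotype, but not the same 3, whereas the 3 WT libraries are the lowest for H60b.

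Zfp990 (ENSMUSG00000078503), a zinc finger protein gene with 3498 exonic bases in 4 annotated transcripts, lies at chr4:145510759-145539188 on the plus strand (GRCm38). WT 2, Het 1 and KO 1 stood at 4.87, 5.11 and 6.70 CPM, from 258, 224 and 301 counts. KO 2 had 5 counts, or 0.130 CPM, and the other 5 libraries had 0. Each genotype therefore had 1 high library, and all 3 libraries of letter F were at 0. Between WT 2, the lowest of the high libraries, and KO 2 the level differed 37.5-fold (95% counting interval 15.9 to 116). This pair borders the widest gap between libraries, as do the pairs with such an interval below. The gaps were picked from these same values, so the intervals cover counting error only and are no tests. The genotype means were 1.62 ± 2.81 CPM (WT), 1.70 ± 2.95 CPM (Het) and 2.28 ± 3.83 CPM (KO; SD, n = 3 each), so every SD was larger than its mean.

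The gene stands in a cluster of related zinc finger genes, with which it shares some sequence. Of the 3461 windows of 75 bases in its transcripts, 401 (11.6%) also occur in transcripts of other genes, 201 of them in Zfp987 and 187 in Zfp534. The longest run in common with Zfp987, the gene with most shared windows, is shown as the stretch where reads of both could not be told apart. It has 122 bases, comes from the GENCODE M21 transcripts and spans chr4:145534939-145536708 on the plus strand of GRCm38 with introns removed. No letter is in capitals, since the bases are the same in both genes.
Zfp990: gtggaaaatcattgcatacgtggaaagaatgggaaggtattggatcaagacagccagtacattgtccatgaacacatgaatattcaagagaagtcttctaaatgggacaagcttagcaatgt
The other 3060 windows are its own. Zfp987 stayed at or under 0.134 CPM in every library, and Zfp534 was at 0.226, 0.388 and 0.534 CPM in WT 2, Het 1 and KO 1 against at most 0.0703 CPM elsewhere. Both were too low to enter the tests.

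Several neighbours followed the same library pattern. Within 5 Mb of Zfp990, 6 of 125 tested genes (4.80%) had a Pearson r of at least 0.9 with it on the log2(CPM + 0.1) scale over the 9 libraries, against 5 of 18718 tested genes elsewhere (0.0267%). These correlations are descriptions over 9 libraries of the same kind of tissue. In the same windows around the other 5 genes, 0 of 48 genes reached r = 0.9 for Gm45062, 1 of 201 for BC023719, 0 of 264 for AC165951.1, 0 of 32 for Gm15772 and 0 of 62 for H60b. Elsewhere 0.0160%, 0.102%, 0.135%, 0.0585% and 0.0639% of tested genes did so, in the same order. Windows with 0 such genes are therefore at the background rate. The 1 gene for BC023719 was H2-T10, which overlaps it. The nearest of the 6 to Zfp990, the pseudogene Gm13230 at 59.9 kb (r = 0.98), was at 0.264, 0.365 and 0.467 CPM in WT 2, Het 1 and KO 1 and at 0 in the other 6 libraries. The zinc finger gene Zfp985 (r = 0.96) had 0.623, 0.319 and 1.16 CPM in the same libraries and 0 elsewhere. Masp2, which encodes a serine protease of the lectin pathway of complement, lies 3.06 Mb away (r = 0.97). Its level was 5.08, 5.98 and 5.54 CPM in WT 2, Het 1 and KO 1, and between 0.185 and 0.649 CPM in the other 6 libraries. Zfp979 (r = 0.95) had 4.72, 3.74 and 5.72 CPM in WT 2, Het 1 and KO 1 and 1.14 to 2.09 CPM in the rest, so its groups of libraries also did not overlap. A single gene in the window ran the opposite way at r = -0.90. It was Fv1, the retroviral restriction gene known for its strain-specific alleles, at 11.3, 9.13 and 11.3 CPM in WT 2, Het 1 and KO 1 and 13.1 to 16.0 CPM elsewhere.

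**Figure D2:**
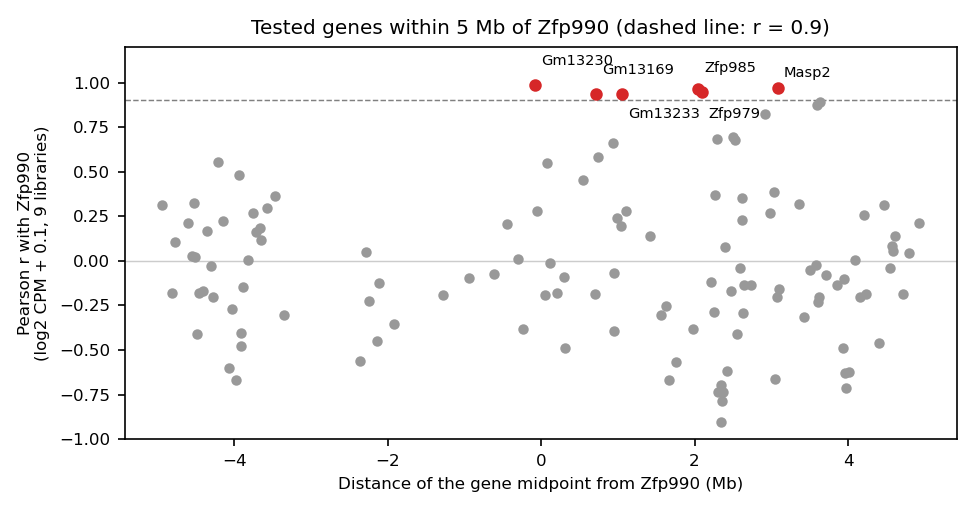
Pearson r with Zfp990 over the 9 libraries (log2 scale, vertical axis) for each of the 125 tested genes within 5 Mb, against the distance of the gene's midpoint in Mb, with the dashed line at r = 0.9. The 6 genes above the line (red) lie between -0.0762 and 3.08 Mb on this axis, among many genes with r near or below 0.

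Not all neighbours followed. The next gene on the one side, Smarca5-ps, had r = 0.28 and the next on the other, Gm13226, had r = -0.19. Of 17 Zfp genes annotated within 5 Mb of Zfp990, 9 were tested, and 0 were called in any of the 3 genotype comparisons or in letter F against D (called meaning an edgeR adjusted p under 0.05). Of all tested genes 0% to 0.0371% were called in these comparisons, so 0 calls in a short list is the background rate. The median log2 fold change of those 9 was 0.37 for KO against WT, 0.06 for Het against WT and 0.41 for KO against Het. For letter F against D it was -0.34. The medians over all tested genes lay between -0.01 and 0.00. The KRAB corepressors, a list of 13 genes that were all tested, had 0 calls in the 4 comparisons, beside the same 0% to 0.0371% of all tested genes, and medians between 0.02 and 0.07. Trim28, the corepressor that KRAB domains bind, had 477 to 611 CPM over the 9 libraries.

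Gm45062 (ENSMUSG00000107705) lies at chr6:8259450-8597480 on the plus strand. It is a read-through locus whose single annotated transcript, a target of nonsense-mediated decay, has 11 exons, 4 of them on the side of Umad1 and the others on the side of Glcci1. WT 1, Het 3 and KO 3 stood at 7.48, 5.59 and 14.1 CPM, from 333, 210 and 603 counts. The other 6 libraries had 0 counts, so each genotype again had 1 library with reads, and 2 of the 3 libraries with reads were of letter F. Het 3 was at least 71.7-fold higher than the highest level that 3 counts per library would give in the libraries at 0. The genotype means were 2.49 ± 4.32 CPM (WT), 1.86 ± 3.23 CPM (Het) and 4.71 ± 8.16 CPM (KO; SD, n = 3 each).

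Nearly all of this transcript is also part of other transcripts. Of its 5768 windows of 75 bases, 5696 (98.8%) occur elsewhere, 5340 of them in Glcci1 and 356 in Umad1. The 72 windows of its own cross the junction from the exon that ends at 8427185 to the exon that starts at 8537817. That junction is shown because it alone tells the read-through from its host genes, with 30 bases on either side, over chr6:8427156-8537846 on the plus strand (GENCODE M21, GRCm38). Capitals mark the exon on the Umad1 side.
Gm45062: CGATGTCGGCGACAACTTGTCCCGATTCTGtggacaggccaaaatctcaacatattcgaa
Glcci1, a glucocorticoid-induced gene, had 66.9 to 106 CPM and Umad1 11.7 to 18.5 CPM over the 9 libraries. The 3 genes summed to 78.6 to 120 CPM, with a coefficient of variation of 13.7%. Gm45062 took 7.89% of this sum in WT 1, 5.11% in Het 3 and 13.1% in KO 3 and none elsewhere. Its r with Umad1 was -0.53 and with Glcci1 -0.05 (n = 9).
The Y-linked gene Ddx3y had 3, 0 and 21 counts in WT 1, Het 3 and KO 3, 0 in Het 1, and 1714 to 3120 in the other 5 libraries. Gm45062 reads thus came from 3 of the 4 libraries with little or no Ddx3y, and the part of embryo sex was not tested. The genes most like Gm45062 were Gm45844 (r = 0.93), Aldh1a3 (r = 0.85), which encodes an enzyme of retinoic acid synthesis, and Eps8l1 (r = 0.82), all on chromosome 7. None of the 3 was among the first 3 when ranked by Spearman's rho.

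BC023719 (ENSMUSG00000092365), annotated as an antisense RNA in GENCODE, has 2 exons and 978 exonic bases at chr17:36111426-36117121 on the plus strand, among the H2-T genes. WT 3, Het 3 and KO 3 stood at 10.1, 8.33 and 7.29 CPM, from 450, 313 and 311 counts. KO 1 had 1 count and the other 5 libraries had 0. The libraries with more than 1 count were thus the 3 of letter F, 1 per genotype. KO 3 stood 328-fold above KO 1 (95% counting interval 58.3 to 12977, wide because it rests on 1 count). The genotype means were 3.36 ± 5.82 CPM (WT), 2.78 ± 4.81 CPM (Het) and 2.44 ± 4.20 CPM (KO; SD, n = 3 each).

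Of its exonic bases, 925 (94.6%) overlap H2-T10, a polymorphic pseudogene of class Ib, on the opposite strand. The strand setting of the counting is not given in the sources used here, so reads of both genes cannot be told apart. H2-T10 had 1.39, 1.14 and 1.10 CPM in WT 3, Het 3 and KO 3 and 0.0890 to 0.404 CPM in the other 6 libraries (r = 0.93 with BC023719). BC023719 also shares a stretch of 138 bases with A930015D03Rik, an antisense RNA 73.0 kb away. It is shown because it is the longest run of bases that the transcripts have in common. Over their whole length they share 135 of the 904 windows of BC023719. It spans chr17:36116600-36116737 on the plus strand (GENCODE M21, GRCm38), and no letter is in capitals, the bases being the same in both.
BC023719: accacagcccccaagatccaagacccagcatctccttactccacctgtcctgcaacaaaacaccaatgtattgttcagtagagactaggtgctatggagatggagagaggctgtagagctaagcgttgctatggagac
A930015D03Rik had 4.63, 3.91 and 2.58 CPM in WT 3, Het 3 and KO 3 and 0.245 to 2.44 CPM elsewhere. Its letters thus did not overlap either, by the narrow margin of 2.58 against 2.44 CPM. The share of all tested genes whose letters do not overlap was not counted. The class Ib genes H2-T22 and H2-T23 nearby ran the opposite way, with r = -0.87 and r = -0.79. H2-T22 had 4.61, 4.69 and 4.59 CPM in the libraries of letter F and 6.16 to 10.3 CPM in those of letter D. The letters of H2-T23 overlapped, with 1.24 to 2.24 CPM in F and 1.89 to 4.24 CPM in D.

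AC165951.1 (ENSMUSG00000117786), an antisense RNA of 3 exons and 4014 exonic bases, lies at chr17:30920338-30963220 on the minus strand, 5.15 Mb from BC023719. In the order of replicates 1 to 3, WT had 20.5, 16.9 and 12.2 CPM and Het 21.7, 0 and 9.48 CPM. KO 1 and KO 2 were at 0 and KO 3 had 11.1 CPM. Counts in the 6 libraries with reads ran from 356 to 950. Het 2, KO 1 and KO 2, all of letter D, were at 0, and Het 3 was at least 122-fold above the highest 3-count level in them. The genotype means were 16.5 ± 4.12 CPM (WT), 10.4 ± 10.9 CPM (Het) and 3.70 ± 6.41 CPM (KO; SD, n = 3 each). Highest and lowest library differed by 7.77 on the log2(CPM + 0.1) scale, the widest span of the 6 genes. Of the 3940 windows of 75 bases in AC165951.1, 201 (5.10%) occur in other transcripts, 173 of them in AC174471.1. That gene shares 246 exonic bases with it on the same strand. AC174471.1 was not tested and had 105 counts in WT 2, 55 in Het 3 and 0 in the other libraries.

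The tested genes nearest to AC165951.1 on one side moved with it over smaller ranges. Dnah8, a dynein heavy chain gene of motile cilia and sperm tails 43.0 kb away (r = 0.84), had 1.48, 1.80 and 1.51 CPM in Het 2, KO 1 and KO 2 and 2.04 to 6.60 CPM in the other 6 libraries. Glo1 (r = 0.896) encodes glyoxalase 1, which detoxifies methylglyoxal. It had 72.0, 75.6 and 64.6 CPM in those 3 libraries and 97.4 to 141 CPM in the others. The antisense RNA AC165962.1 (r = 0.88) had 12.8, 12.8 and 10.7 CPM against 15.2 to 22.5 CPM. In all 3 neighbours the libraries without AC165951.1 were the lowest 3. That order was not rare: it held for 22 of 264 tested genes within 5 Mb (8.33%) and for 857 of the 18579 others (4.61%). No gene within 5 Mb reached r = 0.9, with Glo1 just under it, against 0.135% elsewhere. On the other side the nearest tested gene, the sterol transporter gene Abcg1, had r = 0.58. A segment with Glo1 and Dnah8 is known to be duplicated in some inbred strains, and copy number was not measured here.

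**Figure D3:**
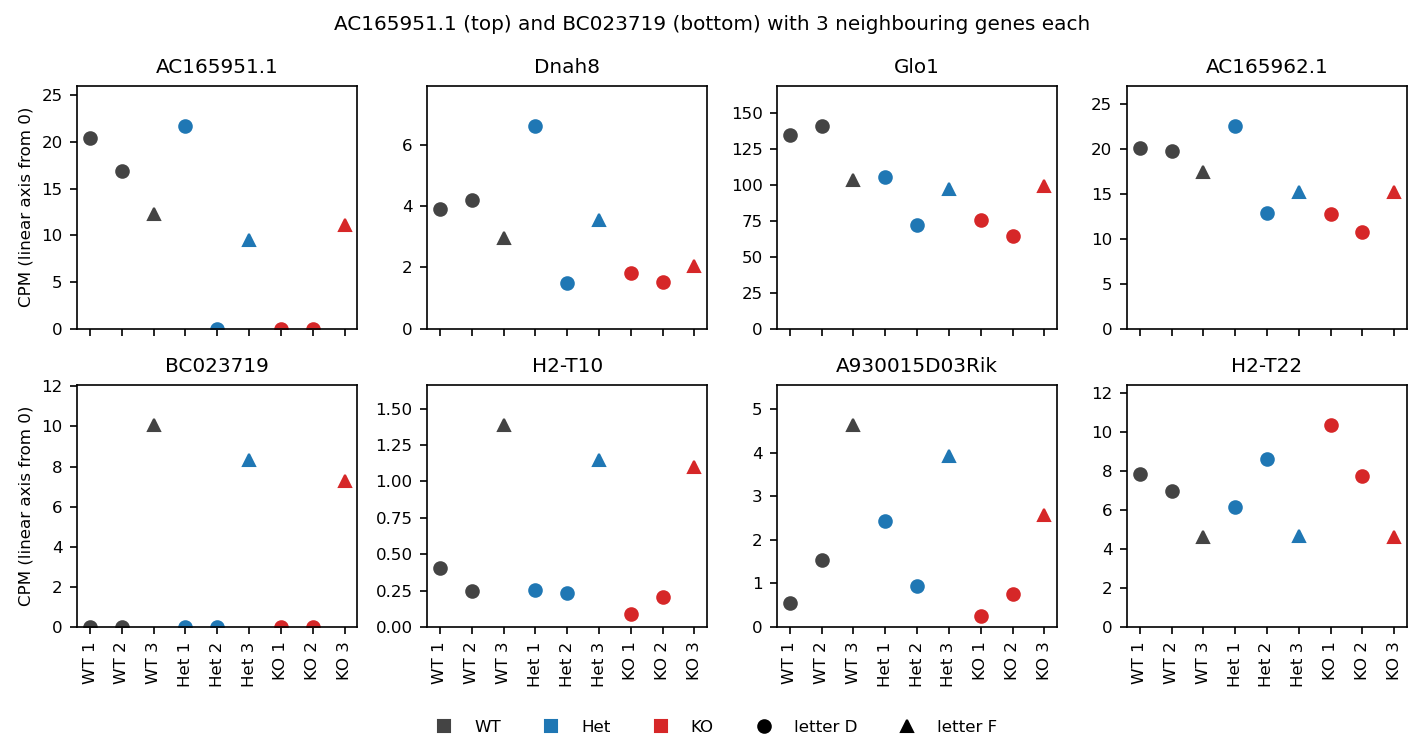
CPM by library on linear axes from 0, 1 point per library, for AC165951.1 with Dnah8, Glo1 and AC165962.1 (top) and for BC023719 with H2-T10, A930015D03Rik and H2-T22 (bottom), with genotype as colour and letter as shape. Het 2, KO 1 and KO 2 are lowest in all 4 upper panels, and the 3 libraries of letter F are highest in the first 3 lower panels and lowest for H2-T22.

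Gm15772 (ENSMUSG00000062353) is a processed pseudogene of Rpl26, a protein of the large ribosomal subunit, with 438 bases at chr5:3236431-3236868 on the plus strand. For replicates 1 to 3 the WT levels were 17.0, 16.4 and 163 CPM and the Het levels 137, 16.8 and 139 CPM. All KO libraries were high, at 167, 136 and 271 CPM. WT 1, WT 2 and Het 2 lay close together, and the next library, KO 2, was 7.95-fold above WT 1 (95% counting interval 7.37 to 8.59). The genotype means were 65.5 ± 84.5 CPM (WT), 97.8 ± 70.2 CPM (Het) and 191 ± 71.1 CPM (KO; SD, n = 3 each), with WT and KO overlapping.

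The pseudogene matches the reading frame of Rpl26 over all 438 bases but 2 (99.5% identity), at C177T and T288C. The base of Rpl26 comes first, and positions count from 1 at the A of the start codon. Both are at place 3 of their codon (codons 59 and 96). Bases 151 to 310 of both are shown because they hold the only differences in the frame, in capitals (GENCODE M21, GRCm38). Rpl26 spans chr11:68902425-68904365 with introns removed and Gm15772 chr5:3236581-3236740, both on the plus strand.
Rpl26: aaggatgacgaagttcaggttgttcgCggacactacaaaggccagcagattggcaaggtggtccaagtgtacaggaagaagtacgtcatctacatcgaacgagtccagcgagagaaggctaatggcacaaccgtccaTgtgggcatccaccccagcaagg
Gm15772: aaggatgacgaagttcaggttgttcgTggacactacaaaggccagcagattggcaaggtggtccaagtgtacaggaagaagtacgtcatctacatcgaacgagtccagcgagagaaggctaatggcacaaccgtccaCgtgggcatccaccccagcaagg
Of the 364 windows of 75 bases in Gm15772, 260 (71.4%) occur in other transcripts, and 214 (58.8%) in those of Rpl26.

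Rpl26 mirrored its pseudogene. Its WT levels were 339, 357 and 229 CPM and its Het levels 182, 367 and 197 CPM for replicates 1 to 3. KO libraries had 242, 191 and 86.9 CPM, with r = -0.95 between the genes on the CPM scale (n = 9, a description). Gm15772 ranged 16.6-fold and Rpl26 4.22-fold, whereas their sum stayed within 319 and 409 CPM, a ratio of 1.28 and a coefficient of variation of 8.49%. Gm15772 took 4.37% to 4.78% of the sum in WT 1, WT 2 and Het 2, 40.8% to 43.0% in WT 3, Het 1, Het 3, KO 1 and KO 2, and 75.7% in KO 3. The shares thus fell at 3 separate levels. The other 4 Rpl26 copies compared, Gm10136, Gm11826, Gm8253 and Gm13268, together had 1.32 to 3.29 CPM.

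**Figure D4:**
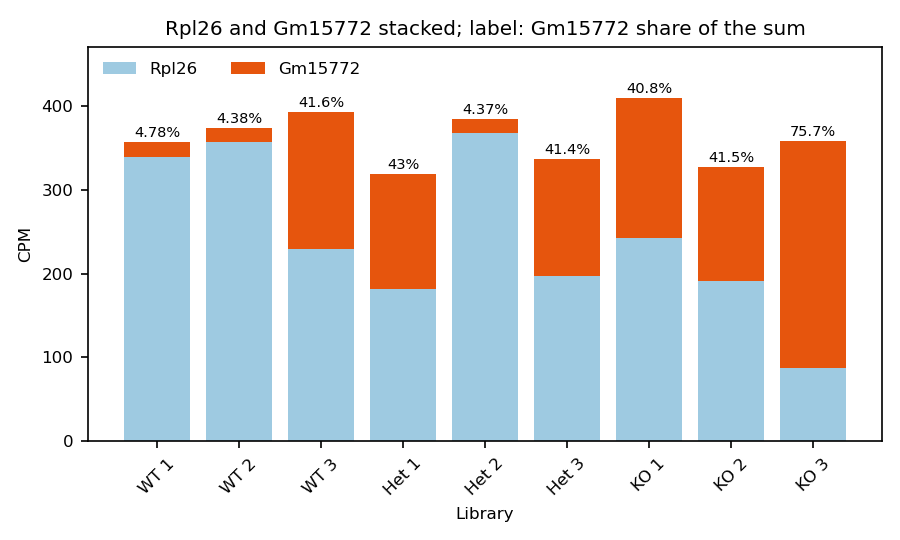
Stacked bars of Rpl26 (blue) and Gm15772 (orange) in CPM from 0 for the 9 libraries, with the share of Gm15772 printed above each bar. The height of the stack stays between 319 and 409 CPM while the share of Gm15772 runs from 4.37% to 75.7%.

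The gene most like Gm15772 was Hfm1 (r = 0.95), a meiotic helicase gene also on chromosome 5, by Pearson's r. Its Spearman's rho was 0.47, beside 0.95 for Gm21103, another of the 3 most alike, so the order depends on the measure. Hfm1 had 1.91, 1.26 and 1.11 CPM in WT 1, WT 2 and Het 2 and 5.47 to 8.10 CPM in the other 6 libraries, so the same 3 libraries were low. Med13l is on the same chromosome, 11.6 Mb from Hfm1 and 115 Mb from Gm15772. No KO library was among the low 3 of either gene. Hfm1 was picked for its likeness to Gm15772, so its low libraries are no separate evidence. The part of the position relative to Med13l was not tested.

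H60b (ENSMUSG00000075297), a protein-coding gene with 1213 exonic bases at chr10:22158586-22288849 on the plus strand, had the lowest peak of the 6 genes per length, at 1.09 CPM per kb of exon in its highest library. For replicates 1 to 3 the WT levels were 0.157, 0.151 and 0.112 CPM and the Het levels 1.32, 0.439 and 0.426 CPM. KO libraries had 0.512, 0.597 and 0.539 CPM, and counts ran from 5 to 58 over all libraries. All Het and KO libraries lay above all WT libraries, with or without Het 1, the highest. How many of all tested genes share this order was not counted, so no genotype effect is read from it. The genotype means were 0.140 ± 0.0245 CPM (WT), 0.730 ± 0.514 CPM (Het) and 0.549 ± 0.0437 CPM (KO; SD, n = 3 each). Het 3, the lowest Het library, was 2.71-fold above WT 1 (95% counting interval 1.05 to 7.79). This pair, with 16 and 7 counts, was picked because it borders the widest gap. The interval therefore covers counting error only and is no test of genotype.

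The library highest for H60b also differed in its region markers. The summed level of 4 thalamus and diencephalon markers was 1197 CPM in Het 1, 97.2 and 102 CPM in the other Het libraries, 81.2 to 91.9 CPM in WT and 93.0 to 160 CPM in KO. Of the 4, Gbx2 was at 0 in Het 2 and KO 1, and the other 3 had reads in every library. All 4 were highest in Het 1, and their part in the H60b levels was not tested. The gene most like H60b was Robo3 (r = 0.95), an axon guidance receptor gene, at no more than 11.8 CPM in WT, 58.8 CPM in Het 1, and 19.2 to 32.6 CPM in the other Het and the KO libraries. Robo3 too had all WT libraries below all others. It was picked for its likeness to H60b in these same libraries, so that order is no separate evidence.

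Among 11 genes of the NKG2D system, its ligands, receptor and adaptors, 8 were found in the table and 5 were tested, with 0 called in the 4 comparisons, beside 0% to 0.0371% of all tested genes. Klrk1, which encodes NKG2D itself, and the ligand gene H60c had 0 counts in all 9 libraries. The other ligand genes found in the table were present throughout. Ulbp1 had 3.74 to 11.5 CPM, Raet1d 1.94 to 5.85 CPM and Raet1e 0.940 to 2.85 CPM. Raet1e overlaps H60b and shares 59 of its 1083 windows of 75 bases. Its r with H60b was 0.27 and that of Raet1d 0.03, so the neighbouring ligand genes did not share its pattern. Of 4 lymphocyte markers, the sum was 0 in 8 libraries and 0.0937 CPM in KO 3.

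The 6 genes did not share a pattern. Over the 15 pairs, r ranged from -0.54 for Zfp990 with Gm45062 to 0.57 for BC023719 with Gm15772 (n = 9). All 6 passed the filter on low counts, Zfp990, Gm45062 and BC023719 through the 3 libraries in which each was high. In the genotype fits across 18844 tested genes, 0 of the 6 were called in KO against WT, where 0.00531% of all tested genes were called and 5.72% had an unadjusted p under 0.05. H60b was the 1 of the 6 in the latter share. For Het against WT 0 of the 6 were called, with 0% of all tested genes called (edgeR; 294 genes, or 1.56%, at an unadjusted p under 0.05, and 1 gene by DESeq2), and H60b was again the 1 of the 6 at an unadjusted p under 0.05. For KO against Het 0 of the 6 were called or at an unadjusted p under 0.05, beside 0.00531% and 7.74% of all tested genes. These counts are descriptions, since the genes were chosen for showing no genotype pattern.

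The letter of the sample description, which each genotype carries as D, D and F, was compared in a fit with genotype as covariate. It is a description for the 6 genes, because their levels in these same libraries chose them. Of the 6 genes, 1 was called, beside 0.0371% of all tested genes (7 of 18844, all higher in F), and 2, BC023719 and Gm15772, were at an unadjusted p under 0.05, beside 6.13%. The called gene was BC023719, with 8.57 ± 1.41 CPM in the 3 libraries of letter F and 0.00371 ± 0.00909 CPM in the 6 of letter D (SD). It passed the filter through the same 3 libraries that make up letter F, so nothing is read from the call, which edgeR no longer made without WT 3, Het 3, KO 1 or KO 3.

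The other 5 genes were not called for the letter by edgeR. Zfp990 was at 0 in all 3 libraries of letter F and in 2 of the 6 of letter D. DESeq2 also called Gm45062, although WT 1 of letter D had more Gm45062 reads than Het 3 and WT 3 of letter F had 0. The neighbours of BC023719 were not called, with edgeR adjusted p = 0.167 for H2-T10, 0.553 for A930015D03Rik and 0.481 for H2-T22.

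The 3 genes most like BC023719 were processed pseudogenes on other chromosomes. They were picked for their likeness to a gene with reads in letter F, so their difference between the letters follows from the choice and is given without a test. Gm8399 (r = 0.99) had 13.1 to 16.0 CPM in D and 58.8 to 72.8 CPM in F. Gm46209 (r = 0.99) had 0.156 to 0.423 CPM in D and 4.94 to 5.55 CPM in F. Rpl17-ps4 (r = 0.98), a copy of a ribosomal protein gene, had at most 0.0890 CPM in D and 0.506 to 0.940 CPM in F. What the letter stands for is not given, so a litter, a run or another shared property cannot be told apart.

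AC165951.1 was most like Gm29683 (r = 0.98), Gm14443 (r = 0.98) and Gm44812 (r = 0.94). Gm14443 on chromosome 2 had 0 in KO 1 and KO 2, 0.0463 CPM in Het 2 and 1.15 to 3.43 CPM in the other 6 libraries. The lincRNA Gm29683 on chromosome 7 had 0.512 to 0.701 CPM in those 3 libraries and 1.70 to 2.99 CPM in the others. These genes were picked for their likeness, and having those 3 libraries lowest was common to 4.61% of the tested genes outside the window.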

How the data were processed

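The authors deposited whole-number read counts per Ensembl gene, not normalised, for the 9 bulk libraries. Which of the tools in the submitters' processing notes (FastQC 0.11.9, STAR 25.2b, StringTie 2.2.1) made the counts, the annotation, the strand setting and the handling of reads with several matches are not given in the sources used here. The notes name build mm10. Symbols and positions came from GENCODE M21 on GRCm38, which matched 55154 of 55335 IDs.

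The test was that of edgeR 4.0.16, run in R 4.3.3 (quasi-likelihood F test, TMM factors, filterByExpr by genotype, robust dispersions), all 9 libraries in 1 fit and genotype as covariate for the letter. The filter kept 18844 genes, holding 99.9% of the counts. P-values were adjusted by Benjamini-Hochberg over all tested genes and called under 0.05. The step was first tested on simulated data. Alternatives used DESeq2 1.42.0 and limma 3.58.1, other size factors and filters, other pseudocounts, blocks and leaving out each library.

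The genes and lists were chosen with earlier results of these data known. The text names these 6 genes, for each the 3 tested genes of highest r among those spanning at least 2 on the log2(CPM + 0.1) scale, the nearest 3 tested genes on either side, and list members as examples. Genes that share windows with a member, Zfp979, Fv1 and Ddx3y were chosen after their values were seen. The labels number 3 cortex libraries per genotype and say nothing on litters. The replicates were taken as separate brains.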

Additional observations from a re-analysis of the deposited data

Results flagged for a closer look

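Among the libraries of letter D, a single library stood apart for each of 2 genes, by the gap to its nearest neighbour over the range of the 6 libraries (Dixon's critical value 0.625). Gm45062 had 7.48 CPM in WT 1 and 0 in the other 5. BC023719 had 0.0223 CPM in KO 1, which is 1 count, and 0 in the other 5. Chance flags about 1 in 20 groups of ordinary values, but these genes were chosen for having libraries at 0, so that rate does not apply to the 2 of 6 groups that met this limit.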

How the results depend on the processing

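With 0 or 1 genes called per genotype comparison, small changes of setting moved the counts. In KO against WT, 1 gene was called, beside 17 by DESeq2, 0 with the replicate block, 0 with the letter as a factor and 0 to 1 without any 1 library. In Het against WT, 0 were called, beside 1 by DESeq2 and 0 with the replicate block. In KO against Het, 1 was called, beside 26 by DESeq2, 0 by limma-voom, 0 with the replicate block, 0 with the letter as a factor and 0 to 1 without any 1 library. For the letter, 7 were called, beside 177 by DESeq2 (44 higher in F), 12 without the genotype covariate (8 higher) and 1 to 14 without any 1 library. The cause was not tested. Libraries with the same replicate number had r of their deviations from -0.35 to 0.26, with 7 of 9 pairs positive and 4 over 0.1. The numbers were not taken to pair them, since not every pair was over 0.1. All 3 pairs of replicate 3, which are the libraries of letter F, were positive (0.03 to 0.26).

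The letter difference of BC023719 kept its direction in every setting tried, with log2 fold changes of 9.81 to 11.67 without any 1 library and 9.29 to 10.53 otherwise, and lost its edgeR call without WT 3, Het 3, KO 1 or KO 3. AC165951.1 had 2.19, which turned to -0.40 without KO 3 and ran up to 4.94 without any other 1 library, with no call. Gm45062 passed the threshold by DESeq2 alone. Of the 12 repeats of the search for the 3 most alike genes (0.5 CPM added, or Spearman's rho), 8 changed the set. With rho 2 of the 3 were kept for Zfp990, 0 for Gm45062 and 1 for each of the others. H60b did not pass the filter of 1 CPM and has no value there. Levels under 0.0566 to 0.0799 CPM, depending on the library, could not be told from 0 at this depth.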

Other observations

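Among all tested genes, 68 (0.361%) had 0 counts in at least 1 library and at least 100 in another. Among them were 4 of the 6 genes chosen for their on and off levels, and 5 were Y-linked. Of the 68, 22 (32.4%) were not annotated as protein coding, beside 20.2% of all tested genes, IDs without any annotation included. In 10 of the 68, all 3 genotypes held both a library at 0 and a library with counts, and 3 of these were Zfp990, Gm45062 and BC023719. The pseudogene Gm6257 had 0 counts in the 3 libraries of letter F and 41 to 121 in the 6 of letter D. Gm20521 had 0 in WT 3, Het 3, KO 2 and KO 3 and 106 to 769 in the others. Onecut3, a transcription factor gene, had 1639 counts in Het 1 and 0 to 46 elsewhere, and Het 1 was also the library with the most thalamus and diencephalon markers. These 3 genes were chosen after their values were seen.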
